A study of Mus musculus with 4 samples.

Results

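Oligodendrocyte progenitor cells (OPCs) of the ventromedial prefrontal cortex (vmPFC) were the cells that the coarse Leiden annotation of the authors labels OPC. They were 1780 of the 20047 annotated cells, with 631, 614 and 531 cells in unsorted mice 1, 2 and 3 and 4 cells in the FAC-sorted library. The study, MERGE-seq, reads the transcriptome and virus barcodes of the same cell. All mice were male C57BL/6, and at 8 weeks of age all of them were injected on one side with 5 rAAV2-retro viruses, one into each of the agranular insular cortex (AI), the dorsomedial striatum (DMS), the mediodorsal thalamic nucleus (MD), the basolateral amygdala (BLA) and the lateral hypothalamus (LH). Each virus carries EGFP with its own 15-base barcode, driven by a short CAG promoter, which is active in most cell types. The prelimbic and infralimbic areas were dissociated 6 weeks later. Each of the 3 unsorted mice gave 1 library of all cells, and 3 other mice were pooled into 1 library after sorting for EGFP. The FAC-sorted library therefore has no replicate, and no mouse was without virus. The labels name the source as retrograde labeled neurons, whereas OPCs are non-neuronal cells of the same suspension. The study named OPCs by Olig2 without Mog. The label was not checked against Pdgfra, Olig2, Cspg4 and Mog, because expression values of single genes were not analysed here.

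OPCs are the dividing glia of the adult brain that carry the PDGF receptor alpha and the NG2 proteoglycan and that give rise to myelinating oligodendrocytes. They are spread through cortical grey matter and receive synapses from neurons, but they have no axon. rAAV2-retro enters axon terminals at the injection site and is carried back to the cell body, so a barcode in a vmPFC neuron names a target of its axon. A cell without an axon has no such target, and the study used non-neuronal cells among its negative controls when it set the threshold of each barcode.

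The 5 barcodes counted in the OPCs are shown here because every barcode value below is a count of molecules that carry one of them. They differ from each other at 10 or more of the 15 positions, and a read was matched with up to 2 mismatches.
AI: CTGCACCGACGCATT
DMS: GAAGGCACAGACTTT
MD: GTTGGCTGCAATCCA
BLA: AAGACGCCGTCGCAA
LH: TATTCGGAGGACGAC

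A unique molecular identifier (UMI) is a random tag that marks a cDNA molecule ahead of amplification, and reads that share it are counted once. RNA UMIs count the molecules of the transcriptome library of a cell, and barcode UMIs count those of its projectome library, in which the barcodes were amplified. The projectome libraries of unsorted mice 1, 2 and 3 held 20443286, 30613665 and 32895529 reads, or 2542, 4115 and 4544 per cell of the barcode tables, and the FAC-sorted library held 14639 per cell. Mouse 1 thus had the fewest reads per cell. It also had the lowest barcode levels below, and the part of depth in this was not tested. Of the OPCs, 12 had a cell barcode sequence that also occurred in another library, as did 105 of all annotated cells.

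How common OPCs were was compared first between unsorted tissue and the EGFP gate. OPCs were 9.54% of the annotated cells of unsorted mouse 1, 10.3% of mouse 2 and 9.19% of mouse 3, a mean of 9.68% ± 0.561 (SD, n = 3). The 95% exact binomial intervals, which cover counting error only, ran from 8.84% to 10.3%, from 9.53% to 11.1% and from 8.46% to 9.97%. These intervals overlapped in the 3 mice. In the FAC-sorted library 4 of 1692 cells were OPCs, or 0.236% (0.0644% to 0.604%). This share lay below all 3 unsorted mice. The FAC-sorted library is 1 pool, and an exact one-sided permutation test of 1 library against 3 cannot give a p below 0.25, so it carries no weight here. The EGFP gate can set this share, and its part was not tested. Among non-neuronal cells alone, OPCs were 18.0%, 19.3% and 17.4% in the unsorted mice and 4 of 73 cells, or 5.48% (1.51% to 13.4%), after sorting, so the interval of the FAC-sorted library stayed below the 3 mice on this scale too. Microglia made up 57 of these 73 cells, against 1031 of 3503, 946 of 3187 and 917 of 3059 in the unsorted mice. No endothelial cell or astrocyte was annotated after sorting, so the low share was not particular to OPCs.

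Mature oligodendrocytes (Oligo), the myelinating cells of the same lineage, were about as frequent as their progenitors. There were 626, 586 and 550 Oligo in the unsorted mice and 11 after sorting. The number of OPCs per Oligo was 1.01, 1.05 and 0.965 in the unsorted mice, a mean of 1.01 ± 0.0412 (SD, n = 3). The 2 cell types thus took nearly equal shares of every unsorted suspension.

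**Figure D1:**
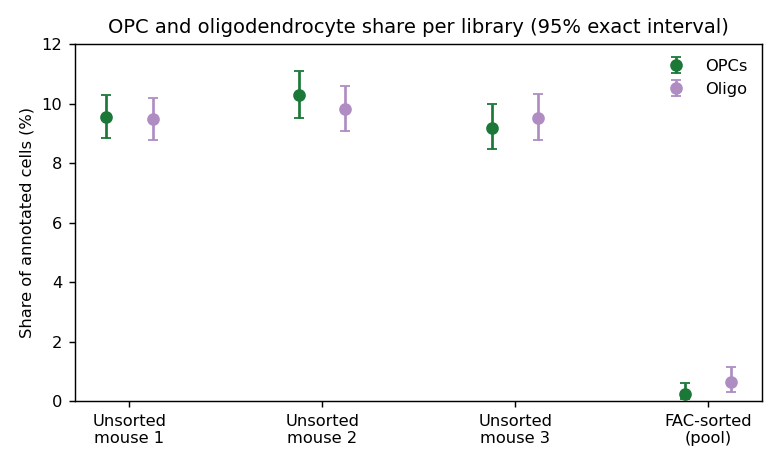
Share of annotated cells (percent) that were OPCs or oligodendrocytes in each of the 4 libraries, with bars for the 95% exact binomial interval. OPCs and oligodendrocytes lie at 9.19% to 10.3% and 9.46% to 9.82% in the unsorted mice and at 0.236% and 0.650% in the FAC-sorted library.

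OPCs held less RNA than oligodendrocytes, but more genes were detected in them. The median OPC had 4049, 4217 and 4343 RNA UMIs in unsorted mice 1, 2 and 3, and the median oligodendrocyte had 4587, 4775 and 4890. OPCs were lower in 3 of 3 mice, by 0.18 ± 0.0049 on the log2 scale (SD, n = 3), which is 0.885-fold. The median OPC had 2320, 2358 and 2387 detected genes, against 1957, 1981.5 and 2024.5 in oligodendrocytes. This was higher in 3 of 3 mice, by 0.24 ± 0.0067 on the log2 scale, or 1.18-fold. With means over cells in place of medians, the difference was -0.35 for RNA UMIs and 0.12 for genes, in the same directions. The highest mouse of one cell type lay apart from the lowest mouse of the other on both measures. An OPC thus had 0.569, 0.560 and 0.554 detected genes for each RNA UMI (median over cells), and an oligodendrocyte had 0.423, 0.417 and 0.414. The order was the same in a narrower range of depth. Among cells of 2000 to 6000 RNA UMIs, a window with 83.4% to 86.5% of the OPCs of each unsorted mouse, the median OPC had 2319, 2322.5 and 2343 genes and the median oligodendrocyte 1897.5, 1916 and 1954. OPCs in this window still had fewer RNA UMIs than oligodendrocytes, by 0.13 on the log2 scale.

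OPCs also held a smaller mitochondrial share. Mitochondrial genes made up 7.19%, 7.22% and 7.10% of the RNA UMIs of the median OPC and 10.6%, 10.9% and 10.8% of those of the median oligodendrocyte. The difference was -3.57 ± 0.177 percentage points (SD, n = 3), with OPCs lower in 3 of 3 mice. The median of the OPCs (7.17% ± 0.0630 over the mice) was close to those of endothelial cells (7.09% ± 0.0861) and microglia (7.16% ± 0.0692). Astrocytes (8.59% ± 0.377) and activated microglia (8.53% ± 0.720) lay between OPCs and oligodendrocytes. Excitatory (6.46% ± 0.0143) and inhibitory neurons (6.69% ± 0.147) lay below OPCs. Oligodendrocytes were thus the highest, and OPCs lay among the other cell types. The share of ribosomal protein genes was 3.78%, 3.98% and 4.22% in OPCs and 4.94%, 4.99% and 5.25% in oligodendrocytes, lower in OPCs in every unsorted mouse. For each of the 3 contrasts of RNA content, flipping the signs of the mice in an exact two-sided permutation test gave p = 0.25, the smallest that 3 mice allow, and 0.306 after Benjamini-Hochberg adjustment over the 11 contrasts of OPCs with another cell type. No contrast of 3 mice can pass 0.05 in this test, so each is given with its spread and its number of mice.

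**Figure D2:**
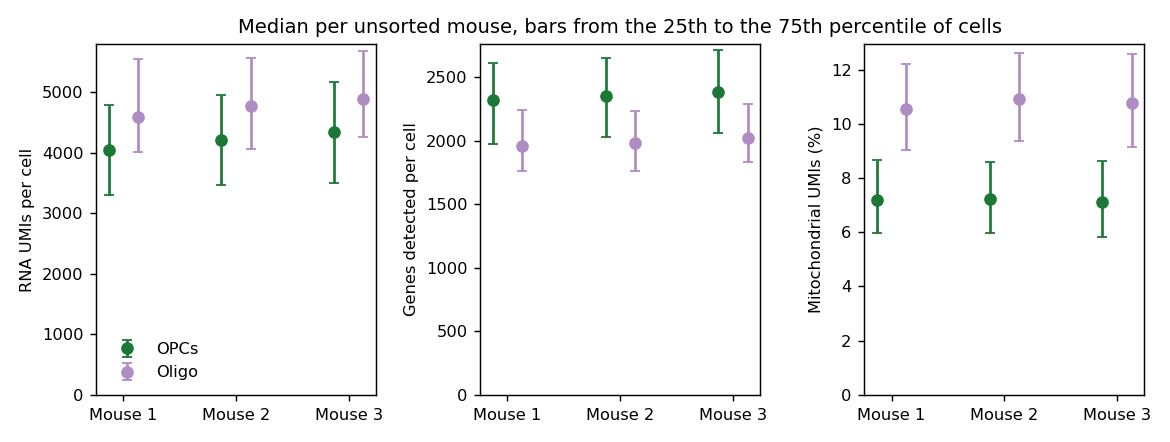
RNA UMIs, detected genes and mitochondrial share (percent of RNA UMIs) of OPCs and oligodendrocytes in the 3 unsorted mice. Points are medians over cells, and bars run from the 25th to the 75th percentile of cells. OPC medians lie below those of oligodendrocytes for RNA UMIs and mitochondrial share and above them for genes in every mouse.

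Barcode molecules were found in nearly all OPCs, at low counts. The median OPC had 5, 8 and 8 barcode UMIs over the 5 barcodes in unsorted mice 1, 2 and 3, and the mean was 5.41, 10.0 and 10.2. The middle 50% of the cells lay between 3 and 7 barcode UMIs in mouse 1 and between 5 and 11 in mice 2 and 3. The deposited tables listed no barcode UMI for 64 of 631, 14 of 614 and 17 of 531 OPCs, or 10.1%, 2.28% and 3.20%. These tables list a count of 1 as 0 for all barcodes but AI, and in a recount of the reads 628, 612 and 529 OPCs had at least 1 molecule. The highest OPC of each mouse had 92, 277 and 375 barcode UMIs. Mouse 1, the library with the fewest projectome reads per cell, was the lowest in mean, median and highest cell.

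The barcode of the DMS virus held most of these molecules. In the recount, which keeps counts of 1, its mean per OPC was 3.67, 6.49 and 6.50 UMIs in unsorted mice 1, 2 and 3. The MD barcode followed at 1.08, 1.79 and 2.07 UMIs, the LH barcode at 1.00, 1.41 and 1.30 and the AI barcode at 0.477, 0.847 and 0.840. The BLA barcode was the rarest at 0.198, 0.368 and 0.369, and at 0.0507, 0.137 and 0.181 in the deposited tables, where its counts of 1 are lost. This order held within each mouse. Over the mice, MD (1.65 ± 0.512) and LH (1.24 ± 0.210) overlapped, since mouse 1 was low for both. Within each mouse MD was the higher one, least so in mouse 1, and this difference was not tested.

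In the same recount, at least 1 DMS molecule was present in 95.1%, 98.5% and 98.1% of the OPCs, and at least 1 BLA molecule in 17.1%, 28.3% and 25.0%. The AI barcode was found in 36.0%, 50.0% and 47.8%, the MD barcode in 63.9%, 77.2% and 80.2% and the LH barcode in 59.4%, 68.9% and 61.8%. In oligodendrocytes, which have no axon either, DMS was found in 92.8%, 98.1% and 98.9% and BLA in 17.4%, 25.1% and 19.5%. Shares of this size were thus also found in another glial type that sends no axon. No projection is read from them, and the source of these molecules was not tested. Thinned to 2000 RNA UMIs per cell, with 41, 27 and 24 shallower OPCs and 16, 12 and 2 shallower oligodendrocytes left out, the DMS share was 80.1%, 92.3% and 90.6% in OPCs and 71.3%, 86.6% and 84.2% in oligodendrocytes. For BLA it was 8.35%, 14.4% and 13.4% in OPCs and 7.55%, 10.9% and 8.39% in oligodendrocytes. At equal RNA depth the OPC values were thus the higher ones in each unsorted mouse for both barcodes.

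Of the barcode UMIs of OPCs in the deposited tables, 65.2%, 64.3% and 63.3% carried the DMS barcode in unsorted mice 1, 2 and 3, a mean of 64.3% ± 0.976 (SD, n = 3). MD took 15.2% ± 2.02, LH 10.7% ± 1.18, AI 8.50% ± 0.293 and BLA 1.36% ± 0.418. Excitatory neurons, the projection neurons of the vmPFC, had a lower DMS share of 43.9%, 43.6% and 45.0%. Here MD took 24.2% ± 0.394, LH 17.5% ± 1.64, AI 9.95% ± 0.200 and BLA 4.10% ± 0.650. The DMS share of OPCs was higher by 20.1 ± 1.58 percentage points (SD, n = 3), in 3 of 3 mice (exact sign-flip test, p = 0.25, adjusted 0.306). Part of this size came from the counts of 1 that the tables leave out. In the recount the difference was 14.4 percentage points, with a DMS share of 57.1%, 59.5% and 58.7% in OPCs and 43.7%, 43.5% and 44.8% in excitatory neurons. With each UMI shared between barcodes of a cell assigned to the barcode that had most reads, it was 11.0. In the tables, the OPC share was also higher than in excitatory neurons with no barcode above its threshold, whose DMS share was 45.2%, 46.8% and 47.8%.

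Against oligodendrocytes, with DMS shares of 60.6%, 60.9% and 62.5%, the OPC share was higher by 2.94 ± 1.99 percentage points in 3 of 3 mice (exact sign-flip test, p = 0.25, adjusted 0.306). This order did not hold without the 3 OPCs and 7 oligodendrocytes above a threshold. In the remaining cells the OPC share was 65.2%, 64.7% and 63.9% and the oligodendrocyte share 67.8%, 62.3% and 66.4%, and the mean difference was -0.955 percentage points. In cells of 2000 to 6000 RNA UMIs it was -2.61. With all cells it was 2.04 ± 0.736 in the recount and 6.37 ± 3.91 with molecules of at least 2 reads. Its direction thus depended on which cells were counted.

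**Figure D3:**
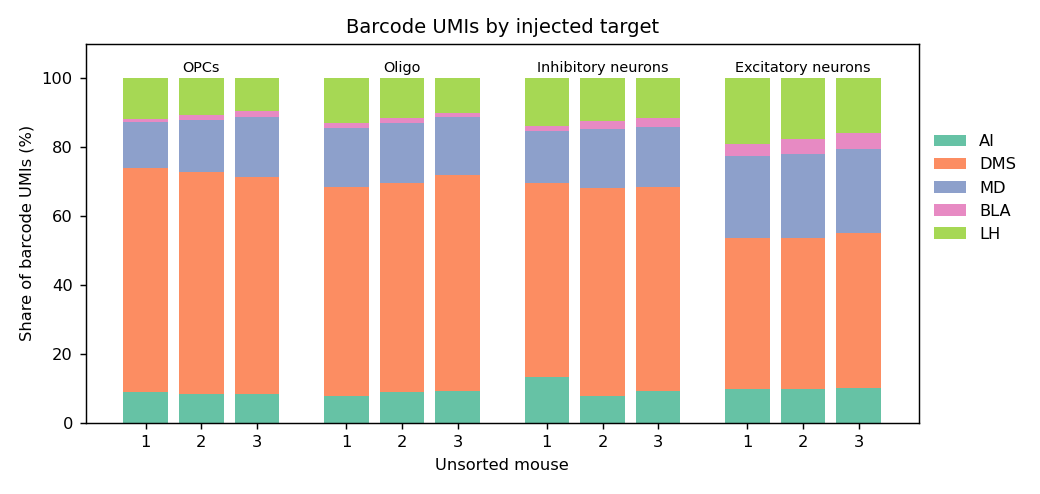
Share of barcode UMIs (percent, stacked to 100, from the deposited tables, which list a count of 1 as 0 for all barcodes but AI) that carried the barcode of each of the 5 injected targets in OPCs, oligodendrocytes, inhibitory neurons and excitatory neurons of the 3 unsorted mice. DMS takes 63.3% to 65.2% in OPCs and 43.6% to 45.0% in excitatory neurons.

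Barcode levels of cell types were then set against each other, per cell and per RNA UMI, since cell types differ in RNA depth. Per cell, oligodendrocytes had a mean of 6.30, 11.2 and 9.09 barcode UMIs, and OPCs were lower in mice 1 and 2 and higher in mouse 3. The mean difference was -0.07 ± 0.207 on the log2 scale (SD, n = 3; exact sign-flip test, p = 0.75), so the means of all cells did not differ beyond the spread of the mice. It turned to 0.31 ± 0.112 when medians replaced means and to 0.335 ± 0.0417 among cells of 2000 to 6000 RNA UMIs, with OPCs higher beyond the spread in both. Without unsorted mouse 1 it was 0.0048, and with only cells below every threshold it was 0.0591.

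Per 1000 RNA UMIs, OPCs had 1.29, 2.21 and 2.24 barcode UMIs in unsorted mice 1, 2 and 3, and oligodendrocytes had 1.13, 1.94 and 1.60. OPCs were higher in 3 of 3 mice, by 0.29 ± 0.172 on the log2 scale (SD, n = 3; 1.22-fold; exact sign-flip test, p = 0.25, adjusted 0.306). The groups overlapped over the mice, since mouse 1 was low for both cell types, and the difference was within the library. It was 0.10 ± 0.344 when molecules with at least 2 reads were counted alone, 0.47 ± 0.0415 among cells of 2000 to 6000 RNA UMIs and 0.46 ± 0.0533 for the median ratio of single cells. It was 0.19 without unsorted mouse 3. Excitatory neurons had 3.96, 5.02 and 4.98 barcode UMIs per 1000 RNA UMIs, and OPCs were lower in 3 of 3 mice, by 1.32 ± 0.263 on the log2 scale (0.400-fold; exact sign-flip test, p = 0.25, adjusted 0.306). Without the cells above a threshold in both types, the difference was -0.60, and it was -0.80 with shared UMIs assigned to the barcode that had most reads. It was -1.16 in the recount, -0.49 for the median ratio of single cells and -2.03 with molecules of at least 2 reads. Inhibitory neurons, which are mostly local and rarely send axons out of the cortex, had 1.26, 1.81 and 1.97. OPCs were above them in 3 of 3 mice by 0.17 ± 0.132 on the log2 scale (1.12-fold; exact sign-flip test, p = 0.25, adjusted 0.306), by 0.29 in the recount. Among cells of 2000 to 6000 RNA UMIs OPCs were below them, at -0.42. This window held only 40, 44 and 26 inhibitory neurons, or 8.02%, 8.87% and 6.24% of those of each mouse. Their median mitochondrial share was 7.67%, 8.67% and 10.6%, against 6.83%, 6.70% and 6.54% over all inhibitory neurons.

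Ranked by the mean of the mice, barcode UMIs per 1000 RNA UMIs were 4.65 ± 0.600 in excitatory neurons, 1.94 ± 0.514 in astrocytes, 1.91 ± 0.542 in OPCs, 1.82 ± 0.503 in microglia, 1.68 ± 0.370 in inhibitory neurons, 1.56 ± 0.405 in oligodendrocytes and 1.56 ± 0.324 in endothelial cells (SD, n = 3). Activated microglia were lowest at 1.47 ± 0.300. Excitatory neurons stood apart in this ranking. Its values come from the deposited tables, which list a count of 1 as 0 for all barcodes but AI. Recount levels were not computed for astrocytes, microglia and endothelial cells. The SD over the mice holds the low level of mouse 1 in every cell type, and within the libraries the order was steadier. OPCs were above microglia (1.24, 2.18 and 2.03), endothelial cells (1.20, 1.83 and 1.64) and activated microglia (1.12, 1.63 and 1.66) in each of the 3 mice, as they were above oligodendrocytes and inhibitory neurons. Against astrocytes (1.35, 2.28 and 2.20) they were higher in mouse 3 and lower in mice 1 and 2. Without the cells above a threshold, OPCs were at 1.29, 2.12 and 2.07. They were then below microglia in mouse 2 and below astrocytes in each mouse. Neither of these 2 types had a cell above a threshold, so their values stayed the same. The differences of OPCs from microglia, endothelial cells, activated microglia and astrocytes were not tested.

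**Figure D4:**
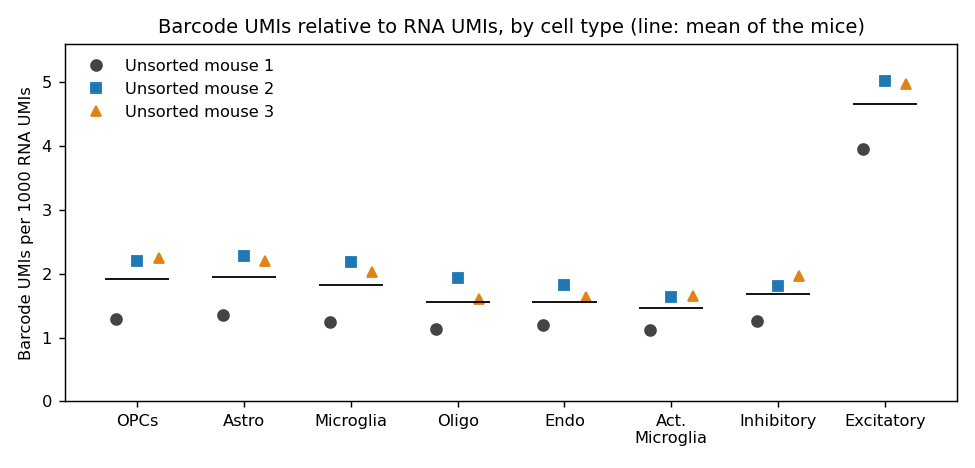
Barcode UMIs per 1000 RNA UMIs in each annotated cell type of the 3 unsorted mice, one point per mouse with a line for their mean. OPCs lie at 1.29, 2.21 and 2.24, among the other cell types and below excitatory neurons, at 3.96 to 5.02.

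For each barcode alone, the mean count of an OPC in the recount was a small part of that of an excitatory neuron. It was 12.4% ± 1.86 for DMS, 7.16% ± 0.989 for AI, 7.10% ± 0.531 for BLA, 7.09% ± 0.548 for LH and 6.70% ± 1.08 for MD (SD, n = 3). DMS was thus above the other 4 barcodes, which lay within their spread of each other. The deposited tables gave 2.79% ± 0.860 for BLA and 5.13% ± 0.844 for LH, since counts of 1 make up more of the barcode UMIs of OPCs than of neurons. Against inhibitory neurons, the OPC mean was between 38.9% and 40.1% for DMS, MD, LH and BLA and 31.5% ± 10.9 for AI. Per RNA UMI, the OPC level relative to inhibitory neurons was 1.28 ± 0.127 for BLA, 1.26 ± 0.0371 for MD, 1.25 ± 0.0509 for DMS, 1.24 ± 0.0617 for LH and 1.00 ± 0.316 for AI. In the deposited tables it was 0.795 ± 0.00667 for BLA, below the inhibitory level in each mouse, and 0.954 ± 0.0934 for LH. Relative to oligodendrocytes it was 1.32 ± 0.309 for BLA, 1.28 ± 0.114 for DMS, 1.20 ± 0.0951 for AI, 1.19 ± 0.0883 for LH and 1.14 ± 0.204 for MD. In the recount all 5 barcodes were above the oligodendrocyte level in every unsorted mouse, with MD the closest to it in mouse 1 at 1.02. In the deposited tables this did not hold, with MD at 0.878 in mouse 1 and 0.9997 in mouse 2, and BLA at 0.656 and 0.909.

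Within OPCs, barcode UMIs followed the RNA UMIs of the cell. Across cells, Spearman's rho between barcode UMIs and RNA UMIs was 0.415 over the 631 OPCs of mouse 1, 0.444 over the 614 of mouse 2 and 0.455 over the 531 of mouse 3. The cells of a library share its depth, and both counts come from the same cDNA of the cell. In the quartile of OPCs with the fewest RNA UMIs the mean was 5.24 ± 1.65 barcode UMIs (SD over 3 mice), and in the next quartiles it was 7.34 ± 2.04, 8.24 ± 2.07 and 13.4 ± 5.25. Per 1000 RNA UMIs the quartiles had 1.99 ± 0.543, 1.91 ± 0.496, 1.80 ± 0.416 and 1.96 ± 0.705. A cell with more RNA thus had more barcode molecules. Within each mouse the rate was lower in the third quartile than in the first, at 1.34 against 1.37 in mouse 1, 2.15 against 2.37 in mouse 2 and 1.92 against 2.23 in mouse 3. In the quartile with the most RNA UMIs it was 1.18, 2.14 and 2.55, below the first quartile in mice 1 and 2 and above it in mouse 3. Without the cells above a threshold it was 1.18, 1.91 and 2.17, below the first quartile in each mouse.

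**Figure D5:**
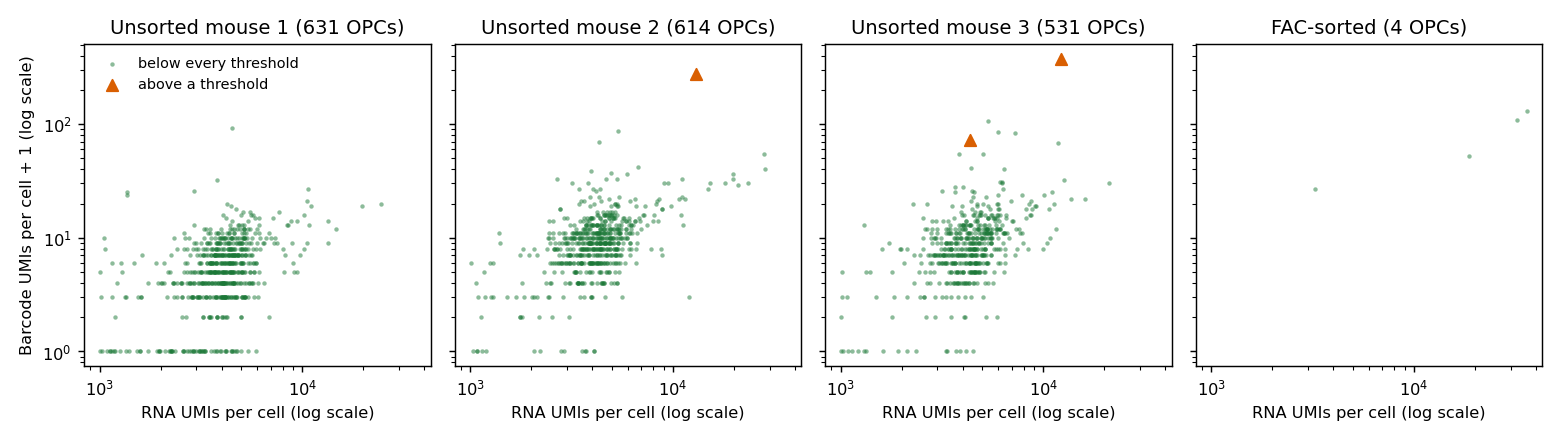
Barcode UMIs plus 1 against RNA UMIs for each OPC of the 4 libraries, both on log axes. Triangles mark the 3 OPCs above a threshold, 1 in unsorted mouse 2 and 2 in unsorted mouse 3. Other OPCs form a cloud around the medians of 5 to 8 barcode UMIs in the unsorted mice, and the 4 FAC-sorted OPCs lie at 26 to 128.

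A cell counted as barcoded where a barcode was above its threshold, and in the deposited joined matrix the AI barcode had a threshold of 28 UMIs, DMS of 101, LH of 103, MD of 114 and BLA of 35. Of the 1780 OPCs, 3 were above a threshold, or 0.169% (95% exact interval, 0.0348% to 0.492%). Over all annotated cells the share was 10.7%, and over all non-neuronal cells, OPCs included, it was 0.153%. Microglia had 0 of 2951 cells above and endothelial cells 5 of 2738. The OPC count was 0 of 631 in mouse 1, for which the limit is a share of 0.475%, 1 of 614 in mouse 2 and 2 of 531 in mouse 3. None of the 4 FAC-sorted OPCs was above a threshold. Oligodendrocytes had 7 of 1773 cells above (0.395%; 0.159% to 0.812%), an interval that overlaps that of OPCs. Inhibitory neurons had 17 of 1420 (1.20%) and excitatory neurons 2116 of 8805 (24.0%). OPCs were among the non-neuronal control cells of the study, which took the higher of 2 control values for each barcode, the other being from FAC-sorted cells without EGFP. The study set each control value at the 99.9th percentile of the control cells, so a low share in OPCs was in part fixed in advance. The same percentile over all annotated non-neuronal cells was 82 for DMS, 71 for MD, 40 for LH, 23 for AI and 10 for BLA. These values are below the thresholds in use, and 3 OPCs were above them too. These shares are given with no test. They cover annotated cells only, from which those above the 95th percentile of barcode UMIs had been removed.

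By barcode, 2 OPCs were above for DMS and 1 for AI. No OPC was above for MD, BLA or LH, so the limit that a count of 0 in 1780 cells sets on each is 0.169%. The highest OPC counts of these barcodes were 54 for MD, 18 for BLA and 40 for LH, well under the thresholds. For DMS the counts above were 237 and 160 and the next highest was 71, and for AI the count above was 33 and the next highest was 27. The 99th percentile of non-neuronal cells, OPCs included, was 24 UMIs for DMS, 9 for MD, 7 for LH, 5 for AI and 3 for BLA. With these values as thresholds, 28 OPCs were above, or 1.57%, against 2.65% of oligodendrocytes, 15.6% of inhibitory neurons and 69.9% of excitatory neurons. The values were taken over cells that include OPCs and oligodendrocytes, so the low shares of these 2 types were in part fixed in advance. The shares over all non-neuronal and over all annotated cells at these values were not computed.

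The OPC with the most barcode UMIs came from unsorted mouse 3. It had 375 barcode UMIs, which was 46.9 times the OPC median of its library, with 237 for DMS, 54 for MD, 40 for LH, 27 for AI and 17 for BLA. It had 12241 RNA UMIs and 4873 genes, more genes than any other OPC of its library, and a mitochondrial share of 3.74%. Its projectome molecules had 53.8 reads each on average. When each UMI that several barcodes of the cell shared was assigned to the one that had most reads, DMS kept 234 and the other barcodes kept between 1 and 8. With at least 2 reads for each molecule, DMS had 119, MD 32, LH 19, AI 13 and BLA 9, so DMS led under both rules and how many molecules of other targets the cell held depended on the rule.

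The OPC above a threshold in unsorted mouse 2 had 277 barcode UMIs, with 160 for DMS, 46 for MD, 28 for LH, 25 for AI and 18 for BLA. It had 13004 RNA UMIs, at the 98.5th percentile of the OPCs of its library, and its mitochondrial share of 13.9% was at the 97.6th. Its molecules had 33.4 reads each on average. With shared UMIs assigned in this way, DMS kept 159 and MD 19. With at least 2 reads for each molecule, DMS had 73, under its threshold of 101. That threshold applies to counts that keep molecules of 1 read, and it was not set again for this rule. Molecules of 1 read were 55.2% of those of this cell and 53.3% of those of excitatory neurons above a threshold in the same mouse. Both OPCs above the DMS threshold were among the OPCs with the most RNA UMIs of their library.

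The other OPC above a threshold in unsorted mouse 3 was an ordinary cell by its RNA, with 4323 RNA UMIs against the library's OPC median of 4343 and 2321 genes against 2387. It had 72 barcode UMIs, of which 33 were for AI, 16 for DMS, 9 for MD, 9 for LH and 5 for BLA. AI took 45.8% of its barcode UMIs, against 8.50% over OPCs. AI had 31 molecules with exact matches, and 19 with at least 2 reads each, under the threshold of 28, so this cell too was not above under that rule. With shared UMIs assigned in this way, AI kept all 33 and DMS 4.

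Among the 10 OPCs with the most barcode UMIs were 2 FAC-sorted cells and 5 other unsorted cells that stayed below every threshold. These 5 had 82 to 106 barcode UMIs, 10.3 to 18.4 times the OPC median of their library. In 3 of them DMS held 63.2% to 69.6% of the barcode UMIs. In the other 2, both of unsorted mouse 3, MD held 46.3% of 82 and LH held 36.9% of 84 barcode UMIs. Their molecules had 25.5 to 65.1 reads on average, against 30.5 to 53.8 in the cells above a threshold. The 2 FAC-sorted cells, with 128 and 107 barcode UMIs, had 1.48 and 1.65 reads per molecule.

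The unsorted cells among these 10 had more reads per molecule than the OPC mean of their library, and the 2 FAC-sorted cells had fewer than any unsorted OPC mean. Over all OPCs, a molecule had a mean of 3.52, 5.01 and 10.8 reads in unsorted mice 1, 2 and 3, against 26.7, 33.9 and 33.5 in excitatory neurons. The median was 1 read in both cell types of each mouse. The 1% of molecules with the most reads held 58.0%, 64.0% and 40.1% of the reads of OPCs. In excitatory neurons they held 13.1%, 15.4% and 14.5%, so the OPC means rest on few molecules. Without the cells above a threshold, the OPC mean was 3.52, 3.79 and 7.54. Molecules seen in 1 read were 81.5%, 78.5% and 71.5% of those of OPCs and 75.9%, 74.3% and 71.9% of those of oligodendrocytes. The difference was 3.10 ± 3.17 percentage points (SD, n = 3), with OPCs higher in 2 of 3 mice (exact sign-flip test, p = 0.5, adjusted 0.550), within the spread of the mice. In excitatory neurons the share was 60.3%, 59.2% and 57.0%, below OPCs in each mouse.

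Some barcode molecules of OPCs carried the same barcode and UMI as a molecule of another cell in the library. They were 2.27%, 2.49% and 2.81% of the molecules in unsorted mice 1, 2 and 3, where chance alone, with UMIs of 12 bases drawn evenly, gives 1.28%, 1.50% and 1.59%. Neurons were above their chance value too. Excitatory neurons had 1.69%, 1.93% and 2.06%, where chance gives 1.13%, 1.29% and 1.39%. Inhibitory neurons had 1.99%, 2.42% and 2.63%, where chance gives 1.23%, 1.49% and 1.57%. In oligodendrocytes such molecules were 1.79%, 2.19% and 2.47%. OPCs were higher in 3 of 3 mice, by 0.370 ± 0.0954 percentage points (SD, n = 3; exact sign-flip test, p = 0.25, adjusted 0.306). The counting intervals of the 2 cell types overlapped in each mouse, for example 1.83% to 2.78% in OPCs and 1.42% to 2.22% in oligodendrocytes of mouse 1. Of the molecules that share barcode and UMI with those of OPCs, 35.3%, 26.8% and 29.6% were in excitatory neurons, which held 33.4%, 33.7% and 32.2% of all molecules of the library. Another 59.8%, 63.1% and 65.1% were in cells of the barcode tables without an annotation, which held 61.7%, 60.1% and 62.3% of all molecules.

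The same UMI with another barcode in the same cell was found for 6.56%, 6.90% and 13.2% of the molecules of OPCs and for 39.7%, 39.5% and 41.8% of those of excitatory neurons. In the OPCs above a threshold it was 46.9% in mouse 2 and 50.6% in mouse 3, near the 49.7% and 51.5% of excitatory neurons above a threshold in the same mice. Oligodendrocytes above a threshold were at 47.9% and 57.4% in these mice, and inhibitory neurons above a threshold at 51.4% in mouse 3. Without the OPCs above a threshold, the OPC share was 6.56%, 5.17% and 10.1% in mice 1, 2 and 3. The 2 FAC-sorted OPCs with the most barcode UMIs were at 7.81% and 11.2%.

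OPCs were made up of 2 Leiden clusters of the authors. Each of the 16 Leiden clusters carried a single cell type label, so that these 2 held no other type was fixed by the labels. Cluster 5 had 1650 cells and cluster 12 had 130, which were 43, 43 and 40 cells of the unsorted mice, 6.81%, 7.00% and 7.53% of their OPCs, and all 4 FAC-sorted OPCs. Cells of cluster 12 were larger in RNA, with medians of 7265, 8320 and 7023.5 RNA UMIs against 4009, 4100 and 4281 in cluster 5, and 3001, 3299 and 3095 genes against 2303, 2325 and 2357. Their median barcode UMIs were 8, 15 and 14.5, against 4, 8 and 7. Per 1000 RNA UMIs the clusters were close, at 2.01 ± 0.770 in cluster 12 and 1.89 ± 0.508 in cluster 5 (SD, n = 3), and without the cells above a threshold at 1.82 ± 0.691 and 1.83 ± 0.458. The ribosomal share of the median cell was 5.35%, 5.51% and 6.07% in cluster 12 and 3.74%, 3.93% and 4.16% in cluster 5. In the deposited tables, the DMS share of barcode UMIs was 58.6% ± 5.21 in cluster 12 and 65.2% ± 0.314 in cluster 5. Of the 3 OPCs above a threshold, 1 was in cluster 12 and 2 were in cluster 5. In the other clustering, by Louvain, 109 cells of cluster 12 joined those of cluster 5, and 21 formed a cluster of their own. The larger of these Louvain clusters held 1759 OPCs, 1 excitatory neuron and 1 oligodendrocyte. As the clusters were made from the same transcriptomes, these values are a description.

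The 4 FAC-sorted OPCs had 3236, 18762, 32113 and 35986 RNA UMIs and 26, 51, 107 and 128 barcode UMIs. All but the smallest of them were far above the unsorted OPC medians of 4049 to 4343 RNA UMIs, and above the unsorted medians of their cluster 12, at 7023.5 to 8320. Other cell types also had more RNA UMIs after sorting, with medians of 30667 against 20760 to 22426 in excitatory neurons and 7149 against 4106 to 4314 in microglia. The paper reports more transcriptome reads per cell for the FAC-sorted library, and the part of this depth was not tested. Their DMS counts were 16, 22, 56 and 71, all under the threshold of 101. Together they had 3.46 barcode UMIs per 1000 RNA UMIs, against 3.41 in the 11 FAC-sorted oligodendrocytes and 8.94 in FAC-sorted excitatory neurons. DMS held 52.9% of their barcode UMIs and 41.9% of those of FAC-sorted excitatory neurons, the same order as in the unsorted mice. With 4 cells of 1 library, these values have no replicate check.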

How the data were processed

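Projectome reads, barcode tables, the joined matrix and the cell annotation of 3 unsorted mice and 1 FAC-sorted pool were used. The barcode tables deposited by the authors hold raw UMI counts per cell and barcode, made with a modified deMULTIplex that allows 2 mismatches. In the joined matrix the authors set counts at or below the threshold of a barcode to 0. The annotation covers cells at or below the 95th percentile of barcode UMIs and gives counts of RNA UMIs and genes and the percent of mitochondrial and ribosomal UMIs as computed by the authors, after Cell Ranger with mm10. Annotated cells held 502 to 7999 genes. The authors had left out cells with few genes, and cells above limits of genes and of RNA UMIs as potential doublets. No other doublet step was run. Another 34 columns were not used.

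Every projectome read was compared with the 5 barcodes, and different UMIs were counted per cell and barcode. In OPCs, 1650 of 8900 entries were 1 in the recount and 0 in the tables, none of them for AI, and all others were equal. Levels over the 5 barcodes together come from the tables, and levels of each barcode and shares of cells with a molecule from the recount. The thresholds gave the barcoded label of the authors in all annotated cells.

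The mouse is the replicate, and no p-value was made from cells. OPCs were compared within each library with other cell types, as log2 ratios or differences, by exact two-sided sign-flip tests over the 3 mice, adjusted over 11 contrasts by the Benjamini-Hochberg method. A library entered with at least 20 cells of both types. The 2 cell types of a contrast are paired because they come from the same mouse. Intervals are Clopper-Pearson. Where nothing was counted, 3 counts of the total serve as the limit. Both cover counting error only. Thinning is the expected share after each cell is reduced to 2000 RNA UMIs. Values named are all 5 barcodes, every OPC above a threshold and the compared cell types. Members, lists and comparisons were chosen with earlier results of these data known. The alternatives were other counting rules, thresholds, cell windows, summaries and denominators, and each mouse left out. The code was tested on simulated data. The versions were scipy 1.17.1, numpy 2.4.6, pandas 2.3.3, matplotlib 3.10.9 and Python 3.11.15.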

Additional observations from a re-analysis of the deposited data

Results flagged for a closer look

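Median RNA UMIs were lower in OPCs than in oligodendrocytes of each unsorted mouse, by 0.17 to 0.18 on the log2 scale, but higher in the FAC-sorted library, by 0.86, with 25437.5 RNA UMIs in 4 OPCs and 14006 in 11 oligodendrocytes. Barcode UMIs per 1000 RNA UMIs were higher in OPCs than in inhibitory neurons of each unsorted mouse, by 0.02 to 0.29, but lower after sorting, at -1.24, with 3.46 in 4 OPCs and 8.16 in 8 inhibitory neurons. Without the 2 inhibitory neurons above a threshold it was -0.60, with 5.25 in inhibitory neurons. Both stand here because the FAC-sorted library went the opposite way from every unsorted mouse. The difference was not tested, as the FAC-sorted library is 1 pool.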

How the results depend on the processing

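Of the alternatives, 112 kept the direction of a contrast or left a share or count near its value. Another 7 reversed a direction and 6 moved a share or count. A contrast that kept its direction could still change in size beyond the spread of the mice. Over all alternatives, RNA UMIs against oligodendrocytes ranged from -0.35 to -0.13, genes from 0.12 to 0.28, barcode UMIs per 1000 RNA UMIs against oligodendrocytes from 0.10 to 0.47 and against excitatory neurons from -2.03 to -0.49, and the DMS share against excitatory neurons from 11.0 to 21.1 percentage points. No sign-flip test over 3 mice can pass 0.05, so only direction and size are given. Barcode UMIs per cell against oligodendrocytes changed sign among cells of 2000 to 6000 RNA UMIs (0.335), without the cells above a threshold (0.0591) and with medians (0.31), and with each mouse left out they ranged from -0.19 to 0.0048. In the same window, barcode UMIs per 1000 RNA UMIs against inhibitory neurons were -0.42, with only 26 to 44 inhibitory neurons of each mouse. The DMS share against oligodendrocytes was -2.61 percentage points there. The DMS share was -0.955 without the cells above a threshold. The cause of these changes was not tested. The OPC share was 18.2% of non-neuronal cells and 50.2% of OPCs and oligodendrocytes together. Without cluster 12, an alternative chosen after seeing the data, it was 8.99%, and every contrast kept its direction. The 3 OPCs above a threshold became 28 with the 99th percentile and 1 with UMIs of at least 2 reads, with thresholds not set again for that rule. They were 1 to 3 with a mouse left out, 1 without unsorted mouse 3. Without the replicate block, that is with the 2 cell types of a mouse not paired, the mean differences were the same by construction and the exact permutation p was between 0.1, the smallest possible, and 0.8. With 4 FAC-sorted OPCs, the sorted library could not enter any contrast.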
